A study of Mus musculus with 2 samples.

Results

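A set of 10 genes of the lung capillary bed and of vascular tone was followed in the embryonic mouse lung at 14.5 days: Car4, Plvap, Apln, Aplnr, Edn1, Ednra, Ednrb, Ece1, Nos3 and Ace. They were taken by symbol from a list of capillary markers and of apelin, endothelin and nitric oxide genes, not by their values, and all 10 were found among the 43346 mouse genes of each gene table. The tissue came from strain B6NCrl and was sequenced as 2 libraries, biological replicates 1 and 2 of 1 group. The labels call each sample both pooled male and female and a single lung of pup 1, with July collection days 15 (replicate 1) and 17 (replicate 2). RNA was extracted with the mirVana kit, 10.0 ng entered each library, and whether only poly(A) RNA was captured is unknown. There is no second condition, so levels and transcript use are described, and every p-value compares these 2 libraries only.

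Blood vessels of the lung set their tone through peptides and gases that pass between endothelium and smooth muscle. Endothelin-1 (Edn1) is made as a precursor, trimmed by endothelin converting enzyme (Ece1), and constricts vessels through the receptor Ednra on smooth muscle; the receptor Ednrb on endothelium clears the peptide and releases nitric oxide. Nitric oxide from the endothelial synthase Nos3 and the peptide apelin (Apln), acting on its receptor Aplnr, relax vessels, while angiotensin converting enzyme (Ace) makes the constrictor angiotensin II. In the mature lung, Car4 and Apln mark capillary cells specialised for gas exchange (aerocytes), and Aplnr and Plvap, a protein of the diaphragms that span endothelial pores, are high in general capillary cells.

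Lung epithelium, mesenchyme and endothelium were all present by their markers: Sftpc, the surfactant protein gene, stood at 2160 ± 40.1 TPM, Tcf21 at 184 ± 2.92 TPM and Egfl7 at 232 ± 27.8 TPM (mean ± SD, n = 2 here and below). TPM is the deposited abundance, corrected for length and scaled to the same sum in each library. Summed counts were 33601136 and 34535168. The libraries differed in several lists. A gene is called here where it differs between the libraries at least 2-fold with an adjusted p under 0.05, as 1.14% of all genes tested did. Of 9 heart muscle genes tested, 8 were called lower in replicate 2, the list's summed level being 647.5 and 124.3 TPM. The mesothelial gene Msln was also called lower, at 2.98 and 1.24 TPM. Xist was listed at 0.07 and 70.11 TPM, and the 4 Y-linked genes measured were at 17.57 to 47.44 TPM in replicate 1 and at most 0.02 in replicate 2, and neither library was high in both, although the labels call each pooled male and female. No called gene appeared in the capillary, apelin, endothelin, nitric oxide, angiotensin or other vasoactive lists, but smaller differences did. Without the 2-fold limit, 5 of 14 nitric oxide, 3 of 7 angiotensin, 3 of 11 other vasoactive and 1 of 5 endothelin genes tested passed. In each capillary list 1 of 6 passed, and of the apelin genes 0 of 2, beside 22.5% of all genes tested. Whether heart tissue or sex moved any member was not tested.

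Promoter sequences are shown for 2 starts of Ace, for a RefSeq start close to that of the main Ednrb transcript and for the first start of Ece1. The transcript shares of these 3 genes are described further on. Aplnr, Car4 and Ednra also have transcripts with different starts, and their windows, where RefSeq gave one, are not shown. RefSeq (GRCm38.p6) gave windows for 7 of the 10 members, 11 windows in all, each of 200 nt before a start. Capitals mark the motifs searched, on both strands. Of all 32851 windows of this length, 9.96% held the TATA box (TATAAA), 31% the GC box (GGGCGG), 7.8% the GATA motif (AGATAA), 5.48% the AP-1 motif (TGANTCA) and 14% the hypoxia response core (ACGTG).
Ace, start of the full-length somatic transcript, chr11:105967748-105967947, plus strand: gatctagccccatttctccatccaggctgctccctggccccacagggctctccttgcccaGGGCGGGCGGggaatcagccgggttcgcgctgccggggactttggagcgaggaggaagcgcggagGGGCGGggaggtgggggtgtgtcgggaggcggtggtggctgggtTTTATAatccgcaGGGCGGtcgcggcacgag
Ace, inner start, chr11:105974989-105975188, plus strand: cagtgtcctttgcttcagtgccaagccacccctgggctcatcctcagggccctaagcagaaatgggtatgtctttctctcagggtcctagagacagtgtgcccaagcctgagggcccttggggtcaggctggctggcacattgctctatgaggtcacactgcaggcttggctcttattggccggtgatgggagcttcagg
Ednrb, start of Ednrb-202, chr14:103843702-103843901, minus strand: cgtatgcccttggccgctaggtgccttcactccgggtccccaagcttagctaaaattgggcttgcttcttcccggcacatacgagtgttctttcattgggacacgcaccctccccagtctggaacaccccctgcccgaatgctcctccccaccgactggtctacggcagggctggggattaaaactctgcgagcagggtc
Ece1, first start, chr4:137862037-137862236, plus strand: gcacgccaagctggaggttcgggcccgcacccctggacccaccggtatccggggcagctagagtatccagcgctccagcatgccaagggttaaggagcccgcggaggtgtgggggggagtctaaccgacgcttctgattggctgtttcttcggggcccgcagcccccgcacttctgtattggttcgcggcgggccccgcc
The somatic Ace window held 1 match to the TATA box letters and 4 GC boxes. The match reads TTTATA from 31 to 26 nt before the start, so TATAAA itself lies on the strand opposite to Ace. The last 3 bases of this window lie in the first exon of Ace-201. The inner Ace window lies inside introns of the somatic transcript and held none of these letters. The Ednrb window, which lies in the first intron of Ednrb-201, and the Ece1 window shown held none either. The Ednrb window ends at a RefSeq start at 103843701, whereas GENCODE starts Ednrb-202 at 103843696. The 3 other Ece1 windows did hold motifs. There were 2 GC boxes before the start at 137862280 and 1 GC box before that at 137920793. Before the start at 137913558 lay 2 overlapping hypoxia response cores, 1 on each strand. Each of these 3 windows overlaps exons of an Ece1 transcript. The window chr4:137862080-137862279, before the start at 137862280, also overlaps the Ece1 window shown, which ends inside the first of its GC boxes. Of the other members, the Apln window held 1 GC box and those of Car4, Edn1 and Ednra none of the motifs. GC content was 69.5% for the somatic Ace window, 58% for the inner one, 59.5% for Ednrb and 67.5% for Ece1, against a median of 53% over all windows.

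The receptors and Plvap had the highest levels of the set. Aplnr (chr2:85136225-85139923), the apelin receptor, was at 111.06 TPM in replicate 1 and 118.34 in replicate 2. Ednra (chr8:77663031-77724464), the constricting endothelin receptor, was at 109.97 and 118.47 TPM. Plvap (chr8:71497765-71511752) was at 95.04 and 107.83 TPM, and Ednrb (chr14:103814625-103844402) at 100.63 and 96.21 TPM. These 4 genes ranked between the 92.9th and 94.1st percentile of 21474 protein-coding genes, whose median level was 4.1 TPM. Aplnr and Ednra overlapped between libraries, as did Plvap and Ednrb, so neither pair can be ordered; Ednra lay above Plvap in both libraries by 1.13-fold of the means.

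**Figure D1:**
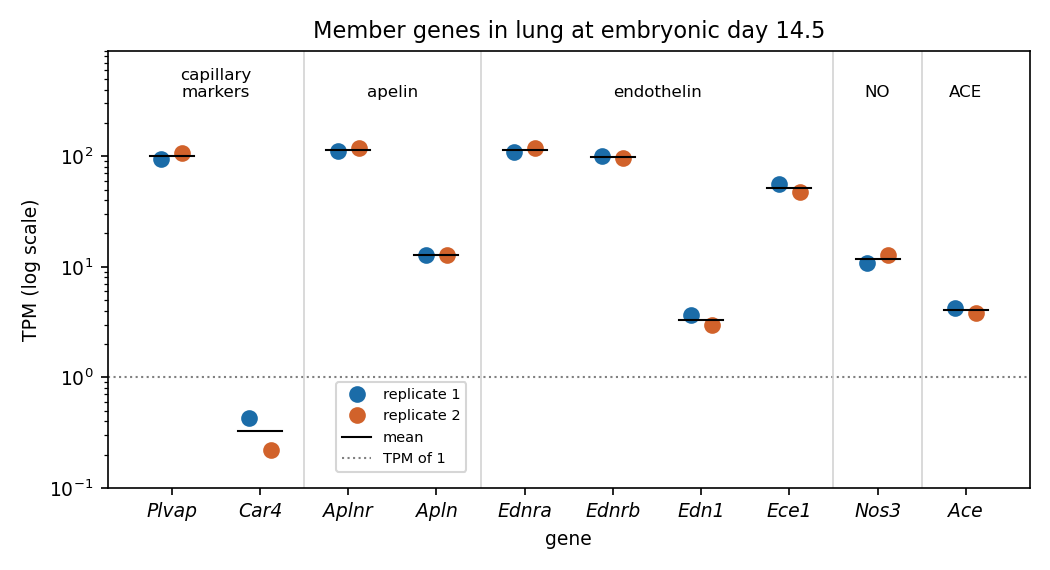
TPM of each member gene in replicate 1 (blue) and replicate 2 (orange), with the mean as a black bar, on a log axis; the dotted line is 1 TPM. The receptors and Plvap lie near 100 TPM, Edn1 and Ace near 3 to 4 TPM, and Car4 under 1 TPM.

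The converting enzyme, the apelin ligand and the nitric oxide synthase lay below them. Ece1 (chr4:137862237-137965229) was at 55.7 and 47.67 TPM, Apln (chrX:48025146-48034853) at 12.72 and 12.68 TPM, and Nos3 (chr5:24364810-24384474) at 10.82 and 12.68 TPM. Of the Ece1 level, 18.43 and 11.63 TPM lay on a transcript of only 172 nt, described further on. Apln and Nos3 touch at 12.68 TPM and cannot be ordered. Next came Ace (chr11:105967945-105989964) at 4.24 and 3.85 TPM and Edn1 (chr13:42301476-42307990) at 3.66 and 2.98 TPM. Both lay close to the median protein-coding gene. In bulk tissue, fewer cells of a type and less RNA per cell cannot be told apart.

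Car4 (chr11:84957786-84966044), the carbonic anhydrase anchored on the capillary surface, was the lowest member. It rested on 11 counts in replicate 1 and 4 in replicate 2, or 0.43 and 0.22 TPM. Exact Poisson intervals, which cover counting error only, ran from 0.215 to 0.769 TPM and from 0.0599 to 0.563 TPM. The files' posterior mean gave 1.09 and 0.75 TPM. By contrast Car2, the cytosolic carbonic anhydrase, was at 291 ± 3.86 TPM, and the next, Car14, at 8.77 ± 0.983 TPM. Of the other aerocyte markers 6 of 7 reached 1 TPM in each library. They were led by Tbx2, a transcription factor also made by lung mesenchyme, at 51.3 ± 4.45 TPM, and Kdr, the main VEGF receptor, at 48.8 ± 0.587 TPM. Nrp1 was at 48.5 and Fibin at 27.7 TPM, but Prx was at 2.15, Chst1 at 1.41 and Rprml at 0 TPM. All 6 general capillary markers reached 1 TPM in each library, led by the angiopoietin receptor Tek at 33.0 ± 0.41 TPM and the stem cell factor receptor Kit at 32.3 ± 3.19 TPM. Hilpda was at 32.2, Cd93 at 27.1, Gpihbp1 at 18.2 and Glp1r at 4.58 TPM. Detection of these markers in bulk tissue does not show which cells made them.

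In all, 9 of the 10 members reached 1 TPM in both libraries, beside 58.8% of protein-coding genes. Against the summed level of 9 pan-endothelial genes (707.1 and 766.9 TPM), led by Egfl7 and by Esam at 120 ± 3.66 TPM, Aplnr stood at 15.7% and 15.4%, Plvap at 13.4% and 14.1%, Nos3 at 1.53% and 1.65%, and Car4 at 0.0608% and 0.0287%.

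Receptors outweighed their ligands. Aplnr was 8.73 and 9.33 times Apln, and Ednra plus Ednrb was 57.5 and 72 times Edn1 alone. That endothelin ratio leaves out Edn3, so against all endothelin ligands together it would be much smaller. Ednrb was 0.915 and 0.812 times Ednra. The ligand of highest level in the endothelin family was Edn3, at 19.83 and 18.96 TPM, which is 5.42 and 6.36 times Edn1 and binds Ednrb with preference; Edn2 was at 0.26 and 0.62 TPM. Apela, the other ligand of Aplnr, was at 0.74 and 0.90 TPM. These are RNA ratios per length and say nothing of peptide.

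The gene entry for Ece2, the paralog of Ece1, needs care. It was listed at 27.07 and 30.38 TPM, but in GENCODE M21 91.9% and 92.3% of that level lies on transcripts named for another gene, Eef1akmt4, a lysine methyltransferase. Transcripts named Ece2 summed to 2.19 and 2.34 TPM, so by these names Ece1 was 25.4 and 20.4 times Ece2, against 2.06 and 1.57 times by the gene entry. The Ece1 level in these ratios includes 18.43 and 11.63 TPM on a 172 nt transcript with 30 and 19 counts. Without transcripts under 350 nt Ece1 was at 36.87 and 35.24 TPM, so the ratios rest partly on that transcript.

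Among partners in the same pathways, 5 of 7 other endothelin genes, 2 of 4 apelin genes, 14 of 16 nitric oxide and cyclic GMP genes, 7 of 13 angiotensin and kinin genes, 11 of 13 other vasoactive genes and 7 of 15 other carbonic anhydrases reached 1 TPM in each library. The nitric oxide list was led by Cav1, the caveolar protein that binds Nos3, at 264 ± 31.7 TPM and Ddah2, which breaks down a synthase inhibitor, at 262 ± 15.8 TPM. The other synthases were low: Nos2 was at 2.26 and 2.85 TPM and Nos1 at 0.05 and 0.08 TPM. Gna11, a G protein subunit downstream of endothelin receptors, was at 67.4 ± 5.27 TPM. Gnai2, a G protein subunit downstream of Aplnr, was at 328 ± 13.1 TPM, and Furin, a protease, at 14.9 ± 1.07 TPM. Atp6ap2 and Enpep led the angiotensin list at 59.6 ± 1.17 and 37.7 ± 0.693 TPM. Ramp2 and Calcrl, the adrenomedullin receptor pair, were at 221 ± 6.61 and 35.4 ± 2.1 TPM. Of other vessel cells, arterial Sox17 was at 36.7 ± 2.61 TPM and Efnb2 at 27.9 ± 2.74, and venous Nr2f2 at 77.4 ± 2.81 and Ephb4 at 58.5 ± 6.38. Lymphatic Pdpn was at 30.3 ± 1.09 and Lyve1 at 27.3 ± 1.08 TPM. The other lymphatic genes were lower, with Flt4 at 11.5 ± 0.339, Prox1 at 1.75 ± 0.177 and Reln at 1.4 ± 0.0778 TPM. The other arterial genes ran from Gja4 at 19.9 TPM down to Gja5 at 4.71 and Bmx at 0.68 ± 0.212 TPM. Of the other venous genes, Vwf was at 14.9, Nrp2 at 8.17 and Slc6a2 at 0.105 ± 0.0354 TPM. Smooth muscle Acta2 was at 731 ± 4.89 TPM and Tagln at 91.2 ± 5.67, and pericyte Pdgfrb at 49.45 and 50.61 TPM and Notch3 at 14.74 and 16.35. The other pericyte genes were lower, with Kcnj8 at 13.1, Rgs5 at 7.03, Cspg4 at 6.73 and Abcc9 at 4.12 TPM. In bulk tissue these levels cannot be assigned to the cell types that the lists are named for.

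**Figure D2:**
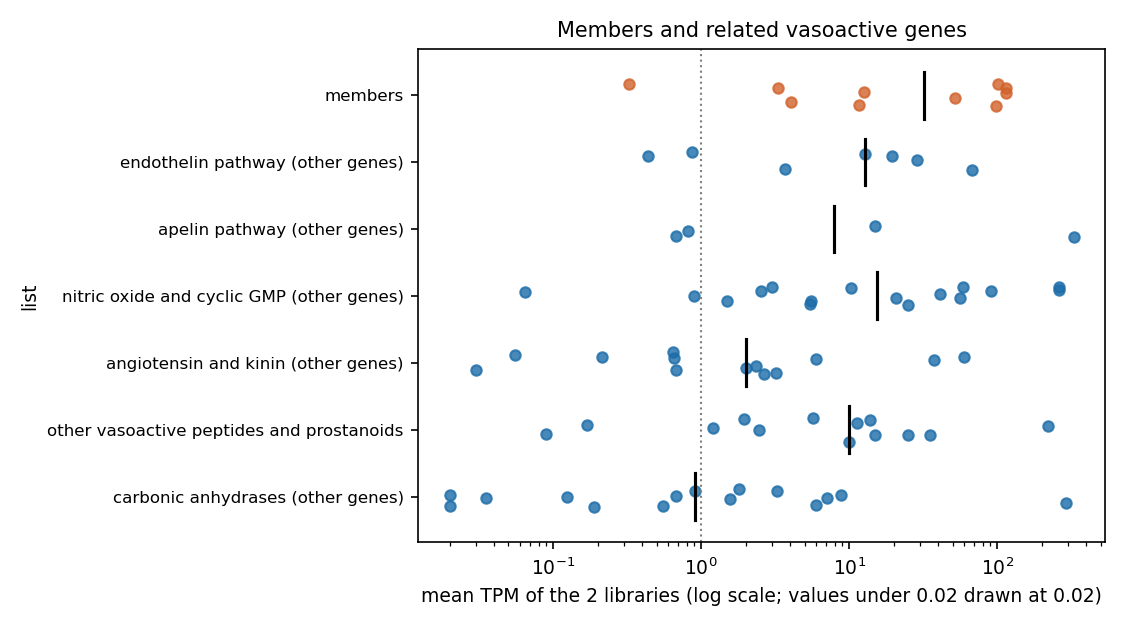
Mean TPM of each member (orange) and of the genes in related lists (blue), on a log axis, with list medians as black bars; values under 0.02 TPM are drawn at 0.02 and the dotted line is 1 TPM. The Ece2 entry, drawn in the endothelin list, holds mainly Eef1akmt4 transcripts; Car4 is the orange point left of the line.

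Several members have more than 1 annotated transcript, and estimated shares differed in how firmly they stood. Ednrb-202 carried 74.47% of Ednrb TPM in replicate 1 and 87.3% in replicate 2; Ednrb-201, which starts 706 nt upstream and shares its coding start, carried 25.53% and 12.7%. The Ednrb-201 counts were 2164.87 and 1033.97, with posterior SDs of 264.54 and 280.42. The posterior mean counts, 2160.82 and 1145.8, differed by -2.63 combined posterior SDs, and the deposited TPM bounds of 19.3 to 31.1 and 7.55 to 19.7 overlapped.

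**Figure D3:**
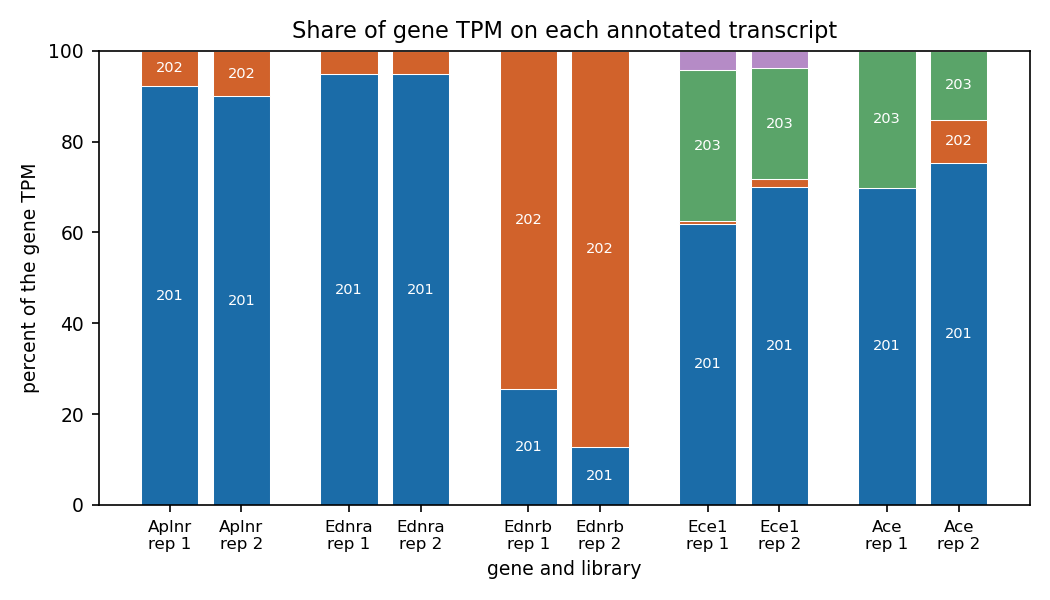
Percent of each gene's TPM on each annotated transcript in each library, with transcript numbers inside the larger segments. Ednrb-201 holds 25.53% and 12.7% of its gene, and Ednra-201 holds 94.8% and 94.86%.

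Ace-201, the full-length somatic enzyme, carried 69.89% and 75.32% of Ace TPM. Ace-203, which starts 3378 nt downstream, carried 30.11% and 15.27%, on 101.13 and 46.77 counts with posterior SDs of 15.99 and 14.65. Its posterior mean counts differed by -2.25 combined posterior SDs, and its TPM bounds of 0.751 to 1.65 and 0.236 to 0.988 overlapped. Ace-202, with the inner start of the testis enzyme 7263 nt downstream, had 0 and 18.84 counts with posterior SDs of 11.27 and 9.81, and their posterior means differed by 0.509 combined posterior SDs. In Ece1, the full-length transcript held 98.2% and 98.6% of counts but 61.85% and 70.05% of TPM. The rest of the TPM lay mainly on a 172 nt transcript with an effective length of 73 nt, where 30 and 19 counts became 18.43 and 11.63 TPM. The labels give a size minimum of 200 nt for both libraries, which is longer than this transcript, so its TPM may not measure a short RNA. Leaving out transcripts under 350 nt, Ece1 was at 36.87 and 35.24 TPM and Aplnr at 102.4 and 106.4 TPM, which puts Aplnr below Ednra in both libraries. This limit was chosen after the data were seen.

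**Figure D4:**
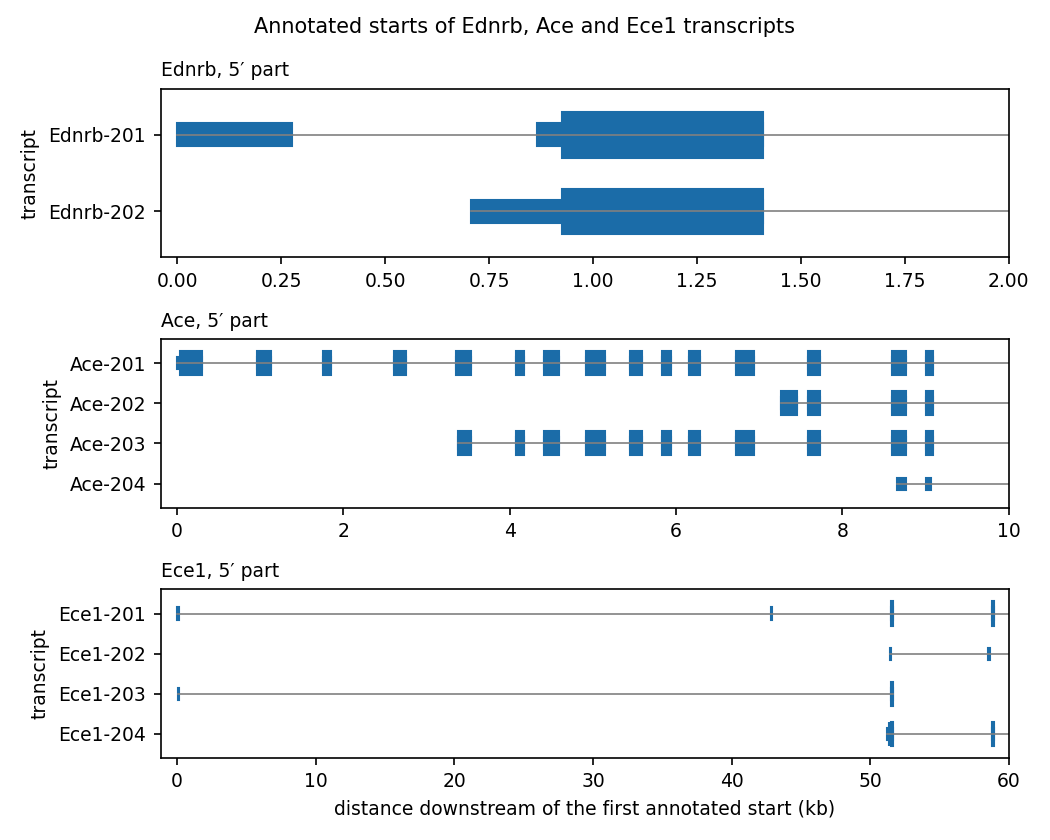
Annotated transcripts of Ednrb, Ace and Ece1 by distance from the gene's first start, in kb; tall boxes are coding and short boxes noncoding exon parts. Ednrb-202 starts 706 nt downstream of Ednrb-201, and Ace-202 starts 7263 nt downstream of Ace-201.

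None of the 9 members tested was called between the libraries, by an exact two-sided binomial test of the 2 counts with Benjamini-Hochberg adjustment, against 1.14% of all 14870 genes tested. Without the size limit 4 members passed, against 22.5% of all genes. Plvap was higher in replicate 2 by 0.13 on the log2 scale (95% counting interval 0.06 to 0.19, exact adjusted p = 0.00072) and Nos3 by 0.17 (0.05 to 0.30, exact adjusted p = 0.0316). Ednrb was lower, at -0.12 (-0.16 to -0.07, exact adjusted p = 4.06e-06), and Ece1 at -0.11 (-0.17 to -0.04, exact adjusted p = 0.00986). Aplnr was at 0.00 (-0.04 to 0.04), Ednra at 0.05 (0.01 to 0.09), Apln at -0.06 (-0.20 to 0.08), Ace at -0.21 (-0.42 to -0.01) and Edn1 at -0.35 (-0.67 to -0.03), none with an adjusted p under 0.05. Edn1, at 183 and 150 counts, has the widest interval of the 9. The binomial test counts sampling error only. With edgeR's exact test 0 members passed, but its spread was estimated from the same 2 libraries that it compares, so it does not show whether the 4 differences lie within replicate spread. Scaling to spike-ins moved the median of all genes by 0.34, and Ednrb and Ece1 with it, to 0.23 each; relative to the median gene both stood at -0.11 under either scaling.

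**Figure D5:**
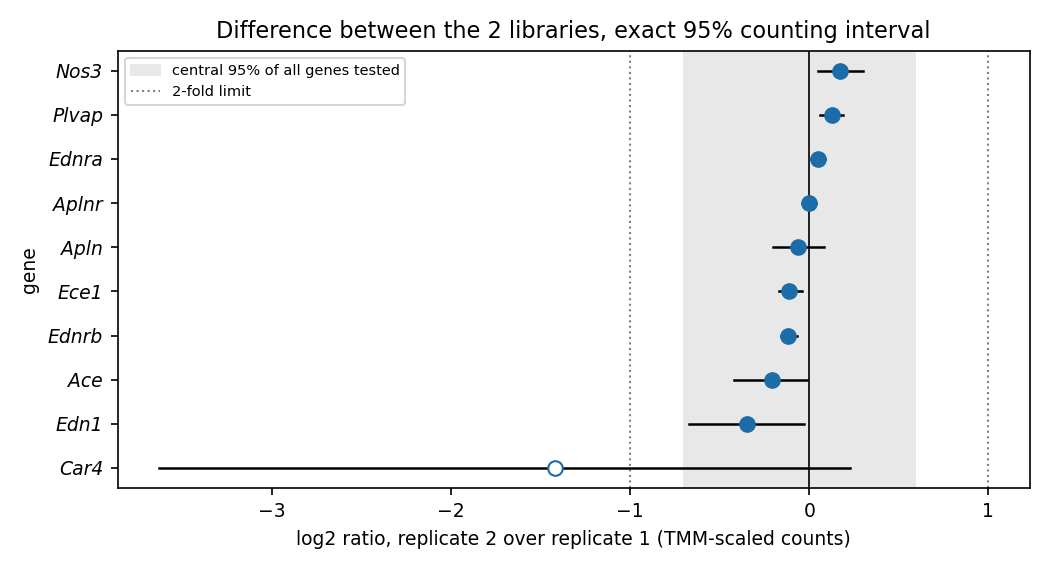
Log2 ratio of replicate 2 over replicate 1 for each member, with exact 95% counting intervals; the grey band, from -0.70 to 0.59, holds the central 95% of all genes tested and dotted lines mark 2-fold. The 9 tested members lie inside the band; Car4 (open point) was not tested.

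Genes on the opposite strand overlap 6 members, and the sources do not state whether counting used strand. Those in the files were low: Gtpbp3 over Plvap was at 5.92 and 7.73 TPM, 4933431K23Rik over Ednra at 1.45 in both, and Gm15587 over Nos3 at 0.24 and 0.30 TPM.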

How the data were processed

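Lung RNA of 1 group, 2 libraries, was measured. The authors deposited, per the file headers, an expected count (an estimated number of reads, not always whole) and TPM per gene and transcript, the percent of a gene's TPM on each transcript, and posterior SDs and bounds, whose level is not stated. The deposited read-me names mm10 and GENCODE M4; aligner and quantification program: not given in the sources used here. Names and 1-based positions came from GENCODE M21 (GRCm38), which matched 42462 of 43346 mouse genes. A newer release for names can move transcripts between genes, as for Ece2.

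Expected counts were rounded, and TMM factors (from edgeR 4.0.16 in R 4.3.3) were computed on the 14870 genes whose TPM averaged at least 1. Log2 ratios add 0.5 to each count. Each gene had an exact two-sided binomial test with Benjamini-Hochberg adjustment over all these genes. It was checked on simulated counts with sampling error only, which cannot show how the test behaves where replicates differ by more. The labels do not settle how many animals each library holds, so p-values measure only the difference between these 2 samples, part of which may be technical. Summed counts were 33601136 and 34535168, with 4.94% and 3.96% on spike-ins; intervals cover counting error only. Transcript windows came from RefSeq. Alternatives were other scalings, filters, added counts, fold limits and tests, posterior means, and transcripts under 350 nt left out. The members and lists were chosen with earlier results of these data known. The rule for naming took all members, the 2 highest and every called gene of each list, and Edn2, Edn3, Apela, Nos1 and Nos2. The text keeps to it for members, pathway, capillary and vessel lists. It adds lower genes of the aerocyte, general capillary, arterial, venous, lymphatic and pericyte lists. Of the other cell type lists it gives only some of these genes or counts.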

Additional observations from a re-analysis of the deposited data

How the results depend on the processing

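No member was called under any alternative run. Scaling to the spike-ins moved the median of all genes by 0.34 (log2) and so put Apln at 0.28, Ednrb at 0.23, Ece1 at 0.23 and Ace at 0.13; relative to the median gene they stood at -0.06, -0.11, -0.11 and -0.21 under both scalings, so the sign moved with the common shift. It called 290 genes in all, 70% of them higher against 31.4%, with 11580 genes and 7 members under an adjusted p of 0.05 at any size. Genes called numbered 538 with no filter, 35 at mean TPM of 5 or more (17.1% higher), 106 by edgeR's exact test (20.8% higher) and 398 at 1.5-fold, against 169. By edgeR's exact test, whose spread comes from the 2 libraries compared, 0 members and 116 genes passed at any size; by the binomial test 7 members had an unadjusted p under 0.05. Without transcripts under 350 nt, an alternative chosen after seeing the data, Aplnr was 8.223 times Apln. TPM over mouse genes only raised the levels of the 9 members other than Car4 by 10.8% to 11.1%, and put Car4 at 0.3619 against 0.325 TPM. No paired analysis was possible because there is 1 group. Depth limits Car4, at 11 and 4 counts.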
